A study of Homo sapiens with 20 samples.

Results

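The response of MDA-MB-468 cells to 48 h of EGF was compared with the untreated control (CTR) across all genes, in 8 of the 20 RNA-seq libraries of the study. The 8 libraries were chosen by their labels, 4 from cells given 50 ng/mL EGF for 48 h and 4 from cells that received no EGF. MDA-MB-468 is an established human breast cancer cell line. All cells, the control included, were seeded and harvested together. They had been cultured for 24 h and then kept without serum for 24 h before EGF was added to the treated cells. The other 12 libraries, from 12, 24 and 72 h of EGF, entered the model so that the spread between replicates was estimated over all 20. One cell line, one dose and one ligand were used, and all time points were set against the same untreated cells. The replicates are labeled as biological, with no statement of separate cultures, so p-values describe the spread between these libraries.

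EGF binds the receptor EGFR, which activates the kinase ERK and, through it, transcription factors of the AP-1 and ETS families. The same signal induces inhibitors that limit it, and in epithelial cells it can start the epithelial-mesenchymal transition (EMT), in which junctions are lost and matrix and cytoskeletal genes rise. MDA-MB-468 is triple-negative, that is, low in estrogen receptor, progesterone receptor and HER2, and it carries many copies of EGFR.

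The deposited table lists 60271 genes, of which 16522 passed a filter on low counts and were tested. A gene with enough counts in only the EGF libraries could pass this filter, and if near 0 in the control it could only come out higher. Totals were 18393007 to 22158289 counts per library in the control and 16527104 to 24098943 at 48 h. Values are given in CPM, which scales the count of a gene by the TMM-adjusted total of its library, and a mean is followed by its SD (n = 4). The adjusted p and the standard error (SE) of a log2 fold change come from the quasi-likelihood model of edgeR, with p adjusted over the whole tested table by Benjamini and Hochberg, and genes with an adjusted p under 0.05 are called higher or lower. The first principal component held 61% of the variance of the 8 libraries and separated the groups, while the second held 13.3% and ran within both groups, with control replicate 2 and EGF 48 h replicate 2 at one end and control replicate 3 and EGF 48 h replicates 3 and 4 at the other. Replicates differed by 4.51 to 57.5 times the sampling variance over 12 pairs. The cell type was checked against its markers. EGFR, EPCAM, CDH1 and 5 keratins summed to 5150 to 5700 CPM in the control and to 7270 to 8070 CPM at 48 h. EGFR, at 3350 to 3580 CPM and 5200 to 6130 CPM, made up most of this sum and of its rise, while EPCAM went from 169 to 192 CPM to 140 to 166 CPM and the ranges of KRT5, KRT8, KRT18 and KRT19 overlapped between the groups. PGR was at 0 in all 8 libraries, and ERBB2 (HER2) was at no more than 24.5 CPM. Of 7 fibroblast markers LUM was at 0, and the list summed to 5.52 to 8.02 CPM in the control and 9.78 to 13.9 CPM at 48 h, nearly all from COL1A1. Of 5 leukocyte markers, 1 was at 0 in all 8 libraries and PTPRC was at no more than 0.304 CPM, and the rise of their sum, from 1.10 to 2.23 CPM to 14.2 to 17.7 CPM, came mostly from CD68, which marks lysosomes as well as macrophages. The 4 endothelial markers summed to 2.39 to 4.07 CPM in the control and to 4.48 to 6.07 CPM at 48 h, with CDH5 at no more than 0.084 CPM. Their part in the results was not tested. In bulk samples, fewer cells of a kind and less RNA per cell cannot be told apart.

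After 48 h of EGF, SERPINB3, SPRR1B and SPRR3 of squamous (skin-like) epithelium were among the largest rises, and CRISP3, CYP4Z1 and S100A8 among the largest falls. Of the tested genes, 7562 (45.8%) were called, 3966 of them (24.0%) higher and 3596 (21.8%) lower at 48 h. Rises were larger than falls. The median log2 fold change was 0.80 among genes called higher and -0.44 among genes called lower, while over all tested genes it was 0.0099. Of these, 2533 genes (15.3%) rose and 1100 genes (6.66%) fell by more than 1.5-fold, and a change of at least 2-fold was seen for 1624 rises and 364 falls. The groups did not overlap for 5772 genes (34.9%), with all 4 EGF libraries above all controls for 3240 (19.6%) and below them for 2532 (15.3%). Of 13365 protein-coding genes, 2916 (21.8%) were higher and 3335 lower. Of the long non-coding RNAs, 846 of 2403 (35.2%) were higher and 202 (8.41%) lower. More genes had at least 1 count at 48 h, 22917 to 23809 per library against 21863 to 22729 in the control, although the ranges of depth overlapped.

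**Figure D1:**
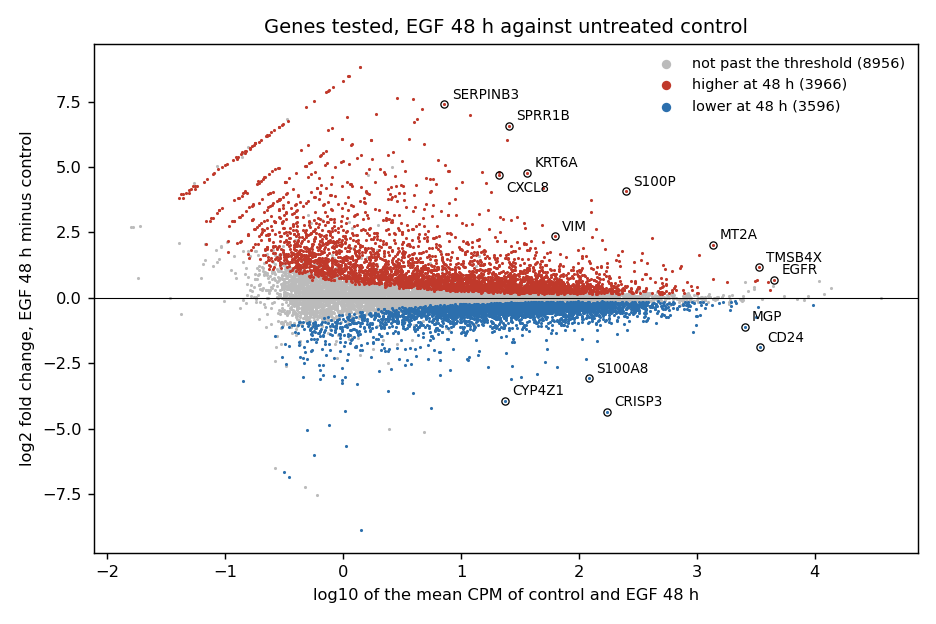
Log2 fold change at 48 h of EGF against the control (vertical) by the log10 of the mean CPM (horizontal). Each point is one of the tested genes (4 with 0 counts in all 8 libraries are not drawn), red points were called higher, blue points lower, and 14 genes named in the text are labeled. The rises reach further from 0 than the falls.

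The 15 largest rises included 6 keratin, cornified envelope and clade B serpin genes. SPRR1B (ENSG00000169469), which encodes a small proline-rich protein of the cornified envelope, was at 0.603, 0.463, 0.512 and 0.529 CPM in the 4 controls and at 47.0, 50.8, 53.3 and 50.4 CPM at 48 h. The groups were far apart, with a log2 fold change of 6.57 (SE 0.12, adjusted p = 1.44e-21). Its neighbor SPRR3 was at 0.547 to 1.00 CPM in the control and at 45.6 to 52.7 CPM at 48 h (log2 fold change 6.05, SE 0.16, adjusted p = 6.64e-19). SERPINB3, a clade B serpin that inhibits cysteine proteases, had 0.101, 0.042, 0.171 and 0 CPM in the controls and 12.0, 11.3, 17.6 and 16.7 CPM at 48 h (log2 fold change 7.40, SE 0.43, adjusted p = 3.19e-11). Every EGF library lay above every control for all 15 of the largest rises, since that was a condition for naming them. KRT6A, a keratin of wounded and hyperproliferative epidermis, rose from 2.58 ± 0.56 to 70.2 ± 7.9 CPM (n = 4 each), a log2 fold change of 4.78 (SE 0.13, adjusted p = 1.13e-18). The other genes of the 15 were KRT34, a hair keratin, SERPINB7, TCN1, which binds vitamin B12, the mast cell receptor gene MILR1, the secreted protein gene SRPX2, the chemokine gene CXCL8, the mucin glycosyltransferase gene GCNT3, ZNF365, and the non-coding RNAs LINC02154, LASTR and LINC02178, with log2 fold changes of 4.54 to 6.99. LINC02154, LASTR and SERPINB3, with at most 8, 9 and 4 counts in a control library, passed the low-count filter through EGF libraries. These genes could only come out higher. SERPINB3 and KRT6A have near-identical copies (SERPINB4, KRT6B and KRT6C), and reads may have been split between them. Exons of genes on the other strand cover 34.9% of the exon bases of SERPINB3 and 17.2% of those of SRPX2, and the sources used here do not state whether counting used the strand. Exons of genes on the same strand cover 31.1% of the exon bases of ZNF365. Rises named below with such overlaps include DUSP6 (40.5%) and DDIT4 (41.2%) on the other strand and ASNS (44.6%) and TAP2 (32.3%) on the same strand.

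The 15 largest falls included genes of secreted proteins, transporters and enzymes. CRISP3 (ENSG00000096006), a secreted cysteine-rich protein, was at 322, 295, 381 and 324 CPM in the controls and at 16, 16.1, 17.1 and 15.7 CPM at 48 h. The fall was 20.4-fold (log2 fold change -4.35, SE 0.097, adjusted p = 3.30e-20), with a narrow spread in both groups. CYP4Z1, a fatty acid hydroxylase of breast tissue, was at 41.3, 41.4, 50.2 and 43.7 CPM in the controls and at 2.60, 3.77, 2.20 and 3.08 CPM at 48 h (log2 fold change -3.93, SE 0.14, adjusted p = 5.12e-17). Its pseudogene CYP4Z2P fell by 4.21 on the log2 scale, and the close sequence of the pair leaves their split uncertain. S100A8, a subunit of the antimicrobial protein calprotectin, was at 197 to 232 CPM in the control and at 23.0 to 29.6 CPM at 48 h (log2 fold change -3.09, SE 0.093, adjusted p = 4.20e-18). The other 11 were ATP13A5, CP (ceruloplasmin, which carries copper), KIF5C, MUCL1 (a small mucin of breast), EDN2, SLC15A2 (a peptide transporter), GLYATL2, IGFBP5, SELENOP, IL22RA2 and POU2AF1, with log2 fold changes of -3.11 to -2.37. Exons on the other strand cover 36.1% of the exon bases of SELENOP and 19.4% of those of CP.

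**Figure D2:**
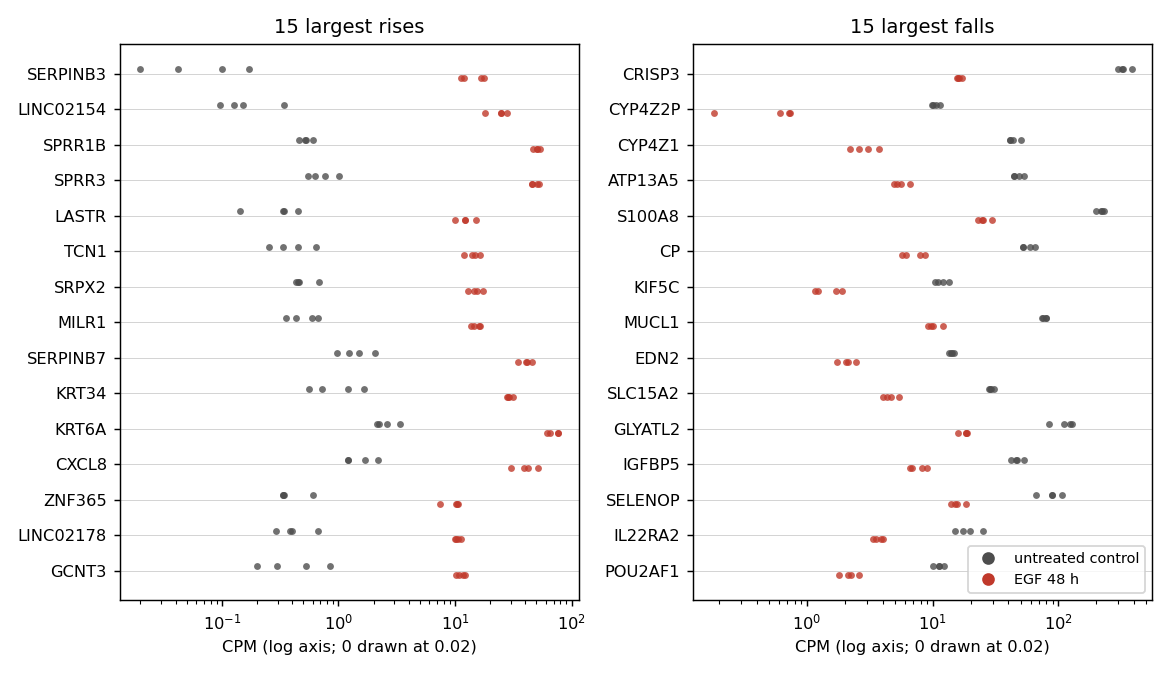
CPM (horizontal, log axis) of the 15 genes with the largest rise (left) and the 15 with the largest fall (right) in each of the 4 control libraries (gray) and 4 EGF 48 h libraries (red); a value of 0 is drawn at 0.02. Most rising genes started below 2 CPM, while the falling genes started at 9.95 CPM or more. Naming required a mean of at least 5 CPM over the 8 libraries, so large falls had to start high and large rises could start near 0.

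With mitochondrially encoded genes left out, the rise of the mean CPM among called genes was largest for TMSB4X (thymosin beta 4, which binds actin monomers), from 2052 ± 130 to 4614 ± 276 CPM (n = 4 each, log2 fold change 1.17, SE 0.058, adjusted p = 6.70e-14). It was followed by EGFR, the stearoyl-CoA desaturase SCD, the metallothionein MT2A and the hyaluronan receptor CD44. The fall was largest for CD24, a surface glycoprotein of luminal cells, which was at 5329, 5031, 5777 and 5270 CPM in the controls and at 1388, 1431, 1434 and 1480 CPM at 48 h (log2 fold change -1.90, SE 0.057, adjusted p = 4.20e-18). CD44 went the other way, from 2264 to 2480 CPM in the control to 3610 to 3907 CPM at 48 h (log2 fold change 0.66, adjusted p = 1.42e-09). MGP, the matrix Gla protein, fell by 1.11 on the log2 scale, S100A9, the partner of S100A8, by 1.30 and PTMA by 0.75. ACTB (beta-actin) fell by 0.28, with 3 of 4 EGF libraries below all controls.

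Promoter sequences were examined for the DNA elements of the factors that EGF activates and of the cell cycle. Promoters from RefSeq (GRCh38.p14), the 250 bases before the start, were matched to 11376 of the tested genes. The AP-1 element TGANTCA was found in 4.32% of them. It was found in 105 of 910 genes (11.5%) that rose at least 2-fold, in 14 of 218 (6.42%) that fell at least 2-fold, in 3.53% of genes that were not called, in 5 of 12 of the largest rises and in 0 of 12 of the largest falls. These shares describe letters in a window and do not show binding. Of the 5 largest rises with the element, the 3 with the fewest annotated exon bases in the window are shown, with the AP-1 element in capitals, 5′ to 3′ on the strand of the gene. They are SPRR1B (chr1:153030953-153031202, plus strand, 2 elements), SPRR3 (chr1:153001499-153001748, plus strand) and LASTR (chr10:5596119-5596368, minus strand).
SPRR1B: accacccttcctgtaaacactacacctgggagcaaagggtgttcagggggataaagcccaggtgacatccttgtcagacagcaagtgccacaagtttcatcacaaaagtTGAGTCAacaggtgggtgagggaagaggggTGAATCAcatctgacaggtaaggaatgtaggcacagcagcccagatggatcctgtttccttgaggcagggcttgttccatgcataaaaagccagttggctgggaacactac
SPRR3: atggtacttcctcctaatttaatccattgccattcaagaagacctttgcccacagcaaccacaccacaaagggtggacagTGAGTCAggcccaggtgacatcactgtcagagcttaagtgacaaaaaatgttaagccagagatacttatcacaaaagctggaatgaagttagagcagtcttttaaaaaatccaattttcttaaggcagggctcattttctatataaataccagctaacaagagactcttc
LASTR: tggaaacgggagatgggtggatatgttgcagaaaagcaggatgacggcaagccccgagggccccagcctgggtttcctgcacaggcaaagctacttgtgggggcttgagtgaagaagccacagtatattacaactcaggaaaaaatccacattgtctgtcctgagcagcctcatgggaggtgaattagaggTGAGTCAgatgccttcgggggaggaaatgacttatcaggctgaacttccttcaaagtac

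Mitotic genes often carry the cell cycle element CHR (TTTGAA) together with CCAAT boxes. Both were present in 11 of 26 mitotic genes with a promoter (42.3%) and in 3.51% of all tested genes with one, searched on both strands. The E2F element TTTCGCGC was in 3 of 31 DNA replication genes (9.68%) and in 0.861% of all genes, and the sterol element was in 1 of 18 cholesterol genes and in 0.044% of all genes. KIF11 (chr10:92592880-92593129, plus strand), a spindle motor, and CDC20 (chr1:43358731-43358980, plus strand), an activator of the anaphase-promoting complex, are shown as mitotic genes that fell and hold both elements, which are in capitals.
KIF11: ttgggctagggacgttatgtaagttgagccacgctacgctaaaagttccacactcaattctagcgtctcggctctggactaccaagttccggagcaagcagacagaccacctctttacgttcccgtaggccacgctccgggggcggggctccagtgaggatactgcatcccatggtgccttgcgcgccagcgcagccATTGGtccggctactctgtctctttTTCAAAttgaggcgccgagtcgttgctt
CDC20: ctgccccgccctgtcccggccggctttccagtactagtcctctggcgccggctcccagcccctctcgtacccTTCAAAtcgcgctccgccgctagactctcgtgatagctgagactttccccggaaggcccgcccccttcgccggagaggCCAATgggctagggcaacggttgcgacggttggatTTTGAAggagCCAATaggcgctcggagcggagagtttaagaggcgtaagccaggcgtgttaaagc

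The receptor and most of its ligands were higher after 48 h of EGF. EGFR itself was at 3357, 3534, 3421 and 3583 CPM in the controls and at 5202, 5733, 6141 and 5352 CPM at 48 h (log2 fold change 0.69, SE 0.066, adjusted p = 8.31e-09), with all EGF libraries above all controls. Of 11 tested ERBB receptors and EGF family ligands, 6 were higher and 2 lower, with a median log2 fold change of 0.52. For this and each later list, the shares over all tested genes to set beside the counts were 24.0% higher and 21.8% lower. The ligand EPGN (epigen) rose from 0.21 to 0.811 CPM to 6.16 to 8.81 CPM (log2 fold change 3.93), AREG (amphiregulin) from 1.56 to 1.89 CPM to 12.0 to 19.0 CPM (3.18) and EREG (epiregulin) from 0.385 to 0.683 CPM to 2.93 to 5.89 CPM (3.02). HBEGF rose by 1.72 and TGFA by 0.52 on the log2 scale. All 5 ligands were separated from the control in all libraries. The receptor ERBB3 was lower (log2 fold change -0.33, SE 0.064, adjusted p = 0.000154), as was the ligand NRG2 at under 1 CPM, while ERBB2 did not pass the threshold (-0.25).

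Inhibitors of the pathway were also mostly higher. Of 25 tested feedback genes, 16 were higher and 4 lower (median log2 fold change 0.59). Among the ERK phosphatases, DUSP6 rose from 4.77, 6.26, 5.21 and 5.19 CPM to 13.9, 11.7, 15.8 and 13.2 CPM (log2 fold change 1.35, SE 0.13, adjusted p = 1.01e-08), and DUSP5 rose by 1.47. The sproutys SPRY2 and SPRY4, which act upstream of ERK, rose by 1.36 and 0.77, and ERRFI1 (MIG6), which binds and inhibits EGFR, by 1.17. SOCS2 rose most, from 2.11 to 3.37 CPM to 15.9 to 19.7 CPM (log2 fold change 2.84, SE 0.15, adjusted p = 1.26e-13), followed by PHLDA1 (2.33), for which EGF 48 h replicate 2 was lowest at 132 CPM against 215 to 278 CPM in the others, and IER3 (1.62). The 4 that fell were LRIG1 (log2 fold change -0.95, SE 0.093, adjusted p = 1.05e-08), LRIG2 and LRIG3, membrane proteins of which LRIG1 promotes the degradation of EGFR, and SPRY1 (-0.45).

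Early response genes did not move together. Of 28 tested, 15 were higher and 6 lower, with a median log2 fold change of 0.44. The AP-1 subunit FOSL1 (FRA1) rose from 2.31, 3.87, 2.35 and 2.60 CPM to 27.5, 25, 26.8 and 23.2 CPM (log2 fold change 3.19, SE 0.25, adjusted p = 6.14e-09). The ETS factors ETV4, ETV5 and ELK3 rose by 1.51, 1.2 and 1.39 on the log2 scale, and MYC by 0.43. In contrast, FOS was at 2.79 to 4.42 CPM in the control and at 2.00 to 2.40 CPM at 48 h (log2 fold change -0.65, SE 0.20, adjusted p = 0.0106), and EGR1, a zinc finger factor induced within minutes of EGF, had a log2 fold change of -0.52 with 3 of 4 libraries below all controls. JUN did not pass the threshold (-0.18). With normalization factors per gene and library, taken from the deposited normalized values, the fall of FOS was -0.21 and was not called.

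**Figure D3:**
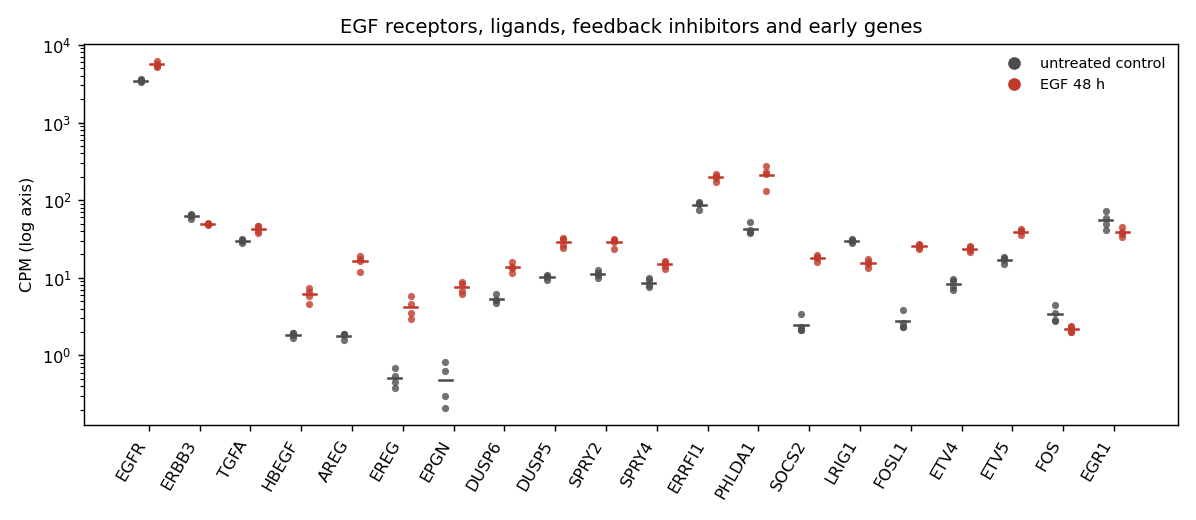
CPM (vertical, log axis) of receptors, ligands, feedback inhibitors and early response genes in each control library (gray) and each EGF 48 h library (red), with bars at the group means. The ligands AREG, EREG and EPGN and the factor FOSL1 are separated by the widest gaps, LRIG1 is lower at 48 h, and the groups of EGR1 overlap.

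Mesenchymal and matrix genes were higher on balance, and the cadherin that marks epithelial junctions was lower. VIM (vimentin, the intermediate filament of mesenchymal cells) was at 20.5, 18.6, 22.1 and 20 CPM in the controls and at 107, 89.6, 117 and 102 CPM at 48 h (log2 fold change 2.35, SE 0.077, adjusted p = 2.30e-17). FN1 (fibronectin) rose from 17.8 ± 2.2 to 67.2 ± 9.1 CPM (log2 fold change 1.92, SE 0.11, adjusted p = 8.61e-13) and EZR (ezrin) from 97.3 to 104 CPM to 120 to 130 CPM (0.33). Of 25 tested mesenchymal and matrix genes 14 were higher and 6 lower, with a median log2 fold change of 0.65. Those that fell were mostly of the contractile apparatus, with TAGLN (log2 fold change -1.03), TPM1 (-0.43), CALD1 (-0.40) and MYL9 (-2.03, from 1.52 CPM), beside PLOD2 and CCN1. Exons on the other strand cover 24.4% of the exon bases of VIM.

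Of the transcription factors of EMT, 4 of 11 passed the filter on low counts. SNAI1, which represses CDH1, rose from 1.56, 2.19, 1.07 and 1.10 CPM to 6.76, 6.99, 4.90 and 4.71 CPM (log2 fold change 1.97, SE 0.21, adjusted p = 6.25e-08). ZEB1 was called higher at no more than a mean of 0.302 CPM, KLF8 was called lower by -0.16 on the log2 scale, a call that did not hold without control replicate 3 (-0.15) or 4 (-0.14) or EGF 48 h replicate 3 (-0.14) or 4 (-0.14), and TWIST1 had 0 or 1 counts in each of the 8 libraries and was not tested. CDH1 (E-cadherin) was at 112, 148, 117 and 133 CPM in the controls and at 90.8, 102, 89.2 and 89.8 CPM at 48 h (log2 fold change -0.46, SE 0.080, adjusted p = 5.35e-05). The groups did not overlap, and the fall was 1.37-fold. With the same factors per gene its log2 fold change was -0.61 and was not called. Of 40 tested epithelial junction and identity genes, 12 were lower and 8 higher (median log2 fold change -0.10). Over all tested genes 21.8% were lower and 24.0% higher, so these counts were near the background. CLDN3, a claudin of tight junctions, was lower (-0.69, with 2 of 4 libraries below all controls), as was MARVELD3 (-0.78). The desmosomal gene PKP1 (plakophilin 1) rose from 0.555 to 1.06 CPM to 3.94 to 5.21 CPM (log2 fold change 2.42, adjusted p = 8.82e-11), and DSG3 had 0 counts in all controls and a mean of 1.44 CPM at 48 h.

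Genes for attachment to and remodeling of the matrix rose. Of 23 tested integrin, laminin and hemidesmosome genes, 17 were higher and only CD151, a tetraspanin, was lower (log2 fold change -0.61, 3 of 4 libraries below all controls), and the median was 0.69. LAMB3, a laminin chain of the epithelial basement membrane, was at 1.26, 1.93, 1.11 and 1.68 CPM in the controls and at 34.4, 31.2, 30.9 and 28.4 CPM at 48 h (log2 fold change 4.37, SE 0.14, adjusted p = 1.14e-17), and the chain LAMA3 rose by 1.93. COL17A1, a collagen of hemidesmosomes, had 7 counts over the 4 controls and 295 at 48 h, a ratio of 42.6 per counts sequenced (95% counting interval 20.4 to 107). With at most 3 counts in a control library, COL17A1 passed the low-count filter through EGF libraries and could only come out higher. The integrins ITGA2, ITGA5 and ITGA3 rose by 2.13, 1.76 and 1.5, and ITGB4, the hemidesmosomal beta chain, by 1.25.

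Of 17 tested plasminogen activators, metalloproteinases and their inhibitors, 13 were higher and 0 lower in edgeR (median log2 fold change 1.11). PLAT (tissue plasminogen activator) rose from 0.213 to 0.402 CPM to 3.91 to 6.08 CPM (log2 fold change 4.28, SE 0.31, adjusted p = 7.30e-11). PLAT, with at most 8 counts in a control library, passed the low-count filter through EGF libraries and could only come out higher. The same holds for MMP1, with 0 counts in all controls. The protease inhibitor SERPINE2 was at 2.31, 2.02, 2.39 and 1.59 CPM in the controls and at 34.9, 26.8, 39.0 and 35.2 CPM at 48 h (log2 fold change 4.03, SE 0.13, adjusted p = 9.42e-18). MMP7 (matrilysin) rose by 1.74 and PLAUR, the receptor of urokinase, by 1.17.

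The squamous programme was broad. Of 23 tested squamous keratins and cornified envelope genes, 15 were higher and 2 lower (median log2 fold change 1.42). Beside the genes above, the protease inhibitor A2ML1 rose from 0.865 to 0.939 CPM to 15.7 to 23.9 CPM (log2 fold change 4.42), KRT6B by 3.09 and KRT16 and SCEL by 1.42 each. The basal keratins KRT5 and KRT17 did not pass the threshold (-0.07 and -0.16), and KRT4, a keratin of mucosa, fell by 0.98. Of 9 tested clade B serpins, 8 were higher and 0 lower in edgeR (median 1.96), SERPINB9 being the one that did not pass (0.07). With at least 10 counts in every library 4 were higher. SERPINB3 and SERPINB4, with at most 4 and 3 counts in a control library, passed the filter through EGF libraries and could only come out higher. Among the squamous genes the same holds for SPRR2D, with at most 4 counts. SERPINB4 had 6 counts over the controls and 699 at 48 h, a ratio of 118 (95% counting interval 53.9 to 322). Of 7 tested kallikreins, serine proteases that shed cornified cells, 6 were higher and 0 lower in edgeR (median 1.39). KLK5 was at 246 to 377 CPM in the control and at 632 to 827 CPM at 48 h (log2 fold change 1.24, SE 0.11, adjusted p = 1.27e-09), KLK10 rose by 1.76 and KLK6 by 1.59, while KLK7 did not pass (0.02).

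The S100 calcium-binding proteins went both ways, with 7 of 15 higher and 4 lower (median log2 fold change 0.16). S100P was at 32.1, 32.0, 24.5 and 23.4 CPM in the controls and at 471, 455, 483 and 480 CPM at 48 h (log2 fold change 4.08, SE 0.096, adjusted p = 6.27e-20), and S100A6 rose from 506 ± 114 to 1578 ± 270 CPM (1.64). S100A8, S100A9 and S100A7 (psoriasin), which are induced in inflamed skin, fell by 3.09, 1.30 and 1.25.

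Genes of luminal breast identity were lower on balance, with 10 of 19 tested lower and 4 higher (median log2 fold change -0.38). XBP1, a transcription factor of secretory cells, was at 1391, 1346, 1302 and 1292 CPM in the controls and at 657, 594, 661 and 684 CPM at 48 h (log2 fold change -1.04, SE 0.051, adjusted p = 5.36e-14). The pioneer factor FOXA1 fell from 170 to 196 CPM to 91.3 to 96.6 CPM (-0.96), and PIP (prolactin-induced protein) fell by 2.35. The luminal keratins KRT8, KRT18 and KRT19 did not pass the threshold (0.07, 0.08 and -0.01). LCN2 (lipocalin 2), which binds siderophores, rose in contrast from 116 to 180 CPM to 652 to 748 CPM (log2 fold change 2.28, SE 0.090, adjusted p = 7.56e-16). Among cytochromes of the CYP4 family, CYP4B1 fell by 2.19 and CYP4X1 by 0.50, while CYP4F3, which inactivates leukotriene B4, rose by 2.16. Of 13 tested CYP4, UGT1A, AADAC and FMO genes, 4 were higher and 5 lower (median 0.14). The first exons of UGT1A genes are joined to shared exons, so the rise of UGT1A6 (1.37) may hold reads of its relatives. Among mucins, of which 3 of 6 were higher and 1 lower (median 0.69), MUC16 rose by 1.69 on the log2 scale (SE 0.34, adjusted p = 0.000695), with a wide spread of 62.0 to 106 CPM.

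Of 30 tested cytokine, chemokine and NF-κB genes, 23 were higher and 1 lower, with a median log2 fold change of 1.42, or 1.38 when the 4 genes with 0 counts in all controls were set to their bound against 3 counts over the group. CXCL8 (interleukin-8), which attracts neutrophils, was at 1.21, 1.22, 2.18 and 1.68 CPM in the controls and at 38.7, 30.1, 51.5 and 42.2 CPM at 48 h (log2 fold change 4.68, SE 0.41, adjusted p = 1.10e-07). CXCL1 rose by 3.45, TNFAIP3 (A20, an inhibitor of NF-κB) by 2.24 and IL1RN, the interleukin-1 receptor antagonist, from 11.6 to 14.8 CPM to 46.7 to 50.1 CPM (1.91). NFKB1 and NFKBIA did not pass (-0.08 each). CCL28, a chemokine of mucosa, was the one that fell (log2 fold change -1.23, SE 0.065, adjusted p = 2.36e-13). Many members were rare, and in a model of the 8 libraries alone 15 were higher. With at least 10 counts in every library 13 were higher.

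Interferon-stimulated genes showed no single direction, with 12 of 35 higher and 5 lower (median log2 fold change 0.20), against 24.0% and 21.8% over all tested genes. SAMD9 rose by 0.89 and IFIT1, which binds viral RNA, fell from 7.23 to 9.79 CPM to 3.38 to 3.86 CPM (-1.26). Of 15 MHC class I and antigen processing genes, 8 were higher and 1 lower (median 0.27), led by the peptide transporter TAP2 (1.16). Of 29 tested TGF-beta, activin and BMP genes, 6 were higher and 10 lower (median -0.10). INHBA, the subunit of activin A, rose from 0.673 to 1.10 CPM to 12.6 to 22.8 CPM (log2 fold change 4.21, SE 0.41, adjusted p = 2.99e-07) and SMAD3 by 1.03, whereas BMP2, ID4 and ID2 fell by 1.23, 1.15 and 1.10. ID1 went against the other ID genes and rose by 1.96. Of 15 Notch pathway genes 5 were higher and 3 lower (median 0.09), near the shares over all tested genes. The ligand JAG1 was up by 0.80 and the target HES1 had a log2 fold change of -0.42.

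Of 30 tested mitotic genes, 14 were lower and 0 higher in edgeR, with a median log2 fold change of -0.18. Of the list 46.7% were called, near the 45.8% over all tested genes, where 21.8% were lower and 24.0% higher. Of the 30, 1 fell by more than 1.5-fold. CENPF, a kinetochore protein, was at 137, 118, 144 and 133 CPM in the controls and at 72.0, 82.0, 84.7 and 81.7 CPM at 48 h (log2 fold change -0.73, SE 0.080, adjusted p = 8.26e-08). CCNB1 (cyclin B1) fell from 203 to 274 CPM to 164 to 176 CPM (-0.47), TOP2A (topoisomerase II alpha) by 0.48, and KIF11 and CDC20, whose promoters are shown above, by 0.56 and 0.52. The proliferation marker MKI67 was at 224, 306, 270 and 305 CPM in the controls and at 228, 287, 226 and 219 CPM at 48 h, and did not pass (log2 fold change -0.20, SE 0.099, adjusted p = 0.0959). It did pass without control replicate 1 (-0.29) or without EGF 48 h replicate 2 (-0.30). PLK1, AURKA and AURKB, mitotic kinases, did not pass (-0.04, 0.03 and 0.19).

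Of 35 DNA replication genes, 16 were lower and 4 higher (median log2 fold change -0.11), and 9 were lower in a model of the 8 libraries alone. Over all tested genes 21.8% were lower and 24.0% higher. GINS1 and GINS4, subunits of the replicative helicase, fell by 0.53 each, GINS1 from 45.5 to 51.4 CPM to 28.0 to 37.3 CPM. Among regulators of the G1 phase, 4 of 17 were higher and 2 lower (median 0.07), which for higher genes is near the 24.0% of all tested genes. CDKN1A (p21, an inhibitor of cyclin-dependent kinases) was at 66.3, 80.3, 57.7 and 63.9 CPM in the controls and at 193, 158, 181 and 178 CPM at 48 h (log2 fold change 1.41, SE 0.12, adjusted p = 8.12e-10). CDK6 rose by 1.48, while the inhibitors CDKN1B (p27) and CDKN2C (p18) fell by 0.63 and 0.48. CCND1 (cyclin D1) was at 78.0 to 80.8 CPM in the control and at 76.2 to 84.6 CPM at 48 h (log2 fold change 0.03, SE 0.083, adjusted p = 0.760).

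Genes for making ribosomes and for respiration were lower by small amounts. Of 36 tested ribosome biogenesis genes, 21 were lower and 0 higher in edgeR (median log2 fold change -0.26). NCL (nucleolin) was at 205, 202, 244 and 215 CPM in the controls and at 139, 146, 153 and 152 CPM at 48 h (log2 fold change -0.55, SE 0.071, adjusted p = 8.88e-07), and NOP56 and RRP1B fell by 0.52 and 0.48. Of the 36, 0 fell by more than 1.5-fold. Of 81 cytosolic ribosomal protein genes, 12 were lower and 4 higher (median -0.05), both below the share among all genes, and 6 were lower without control replicate 1 and 21 without control replicate 2. Of 77 nuclear genes of the respiratory chain, 39 were lower and 1 higher (median -0.20). NDUFC2, a subunit of complex I, was at 230, 148, 293 and 225 CPM in the controls and at 115, 134, 142 and 138 CPM at 48 h (log2 fold change -0.76, SE 0.14, adjusted p = 0.000168). Its controls spread widely, and control replicate 2 was lowest. The 13 mitochondrially encoded protein genes had a median of 0.39 and 1 higher. That one was MT-ND4L (0.68), a call that did not hold without control replicate 1 (0.53), control replicate 3 (0.61), EGF 48 h replicate 1 (0.72) or EGF 48 h replicate 2 (0.40). A share of counts was also taken over all genes of the mitochondrial chromosome, ribosomal and transfer RNA genes included. It was 10.9% ± 1.9 in the control and 12.5% ± 3.1 at 48 h (SD, n = 4). An exact two-sided permutation test of this share gave p = 0.514, where the smallest possible was 0.0286. Of 31 proteasome subunit genes, 12 were lower and 1 higher (median -0.13). The count of lower genes was 6 or 7 without control replicate 1, EGF 48 h replicate 1 or EGF 48 h replicate 2. Of these subunit genes 41.9% were called, against 45.8% over all tested genes, where 21.8% were lower and 24.0% higher.

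Of 20 genes of fatty acid synthesis, elongation and desaturation, 11 were higher and 4 lower (median log2 fold change 0.30). SCD, which makes monounsaturated fatty acids, was at 2792, 3588, 2951 and 3194 CPM in the controls and at 4933, 4983, 4493 and 4778 CPM at 48 h (log2 fold change 0.62, SE 0.070, adjusted p = 1.44e-07). The direction was not shared by the neighboring times. Mean SCD was 1816 CPM at 24 h and 2695 CPM at 72 h, both below the control mean of 3131 CPM. The desaturases FADS2 and FADS3 rose by 0.93 and 0.96 and the elongase ELOVL4 by 1.11, while the fatty acid synthase FASN was lower (-0.39) with 3 of 4 libraries below all controls, a call lost with factors per gene (-0.29) and in the 8 libraries alone, and ELOVL2 fell by 0.86. Of 24 cholesterol synthesis and uptake genes, 2 were higher and 5 lower (median -0.10), against 24.0% higher and 21.8% lower over all tested genes, so the share of lower genes was near the background. FDPS, which makes farnesyl diphosphate, rose from 389 to 496 CPM to 585 to 677 CPM (log2 fold change 0.47, SE 0.071, adjusted p = 8.55e-06). Of 25 genes of lipid droplets and fatty acid oxidation, 10 were higher and 3 lower (median 0.24), with the lipases MGLL and LIPE up by 1.29 and 1.31 and CPT1A, which carries fatty acids into mitochondria, down by 0.56. Of 13 prostaglandin genes, 6 were higher and 4 lower (median 0.49), with the synthase PTGES up by 1.25.

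Among stress and metabolic genes, rises outnumbered falls for glycolysis (11 of 19 higher, 3 lower, median log2 fold change 0.23), hypoxia response (13 of 22 higher, 4 lower, 0.33) and ATF4 targets with amino acid transporters (15 of 25 higher, 3 lower, 0.32). PFKP, a phosphofructokinase, rose by 1.01, NDRG1 and DDIT4, which are induced by low oxygen, by 1.65 and 1.53, and ASNS (asparagine synthetase) by 0.73. Of 5 tested metallothioneins and zinc export genes, 4 were higher (median 1.73). MT2A, which binds zinc and copper, was at 495, 648, 453 and 548 CPM in the controls and at 2308, 2431, 2008 and 1970 CPM at 48 h (log2 fold change 2.02, SE 0.099, adjusted p = 5.49e-14). Of 19 clock genes, 10 were higher and 1 lower (median 0.38), led by NPAS2, a partner of BMAL1, from 22.8 to 29.5 CPM to 75.1 to 95.6 CPM (log2 fold change 1.76), NR1D1 and BHLHE41 (1.74 each). Heat shock proteins were more often lower, 8 of 15 with 3 higher (median -0.19).

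Of 20 tested endoplasmic reticulum chaperone and stress genes, 6 were higher and 6 lower (median log2 fold change -0.07). Over all tested genes 24.0% were higher and 21.8% lower, and no list in this paragraph moved mainly one way. The share called was 60% for these stress genes, 56.5% for NRF2 targets and 60.7% for lysosomal genes. It was 46.2% for the BCL2 family, death receptors and caspases, against 45.8% over all tested genes. HSPA5 (BiP) rose from 198 to 230 CPM to 320 to 377 CPM (0.66) and DDIT3 (CHOP), a factor induced by unfolded proteins, by 1.67, while the disulfide isomerases PDIA6, PDIA3 and PDIA4 fell by 0.56, 0.47 and 0.45. For NRF2 targets 7 of 23 were higher and 6 lower (median -0.01), with ABCC2 up by 1.36 and AKR1B10 down by 0.91. For lysosomal genes 8 of 28 were higher and 9 lower (median 0.06), with the cathepsin CTSB up by 0.85 and the ceramidase ASAH1 down by 0.55. For the BCL2 family, death receptors and caspases 5 of 26 were higher and 7 lower (median -0.02). The TRAIL receptor TNFRSF10B rose by 0.76, whereas its ligand TNFSF10 and the killer protein BCL2L11 (BIM) were lower (-0.57 and -0.58), the latter a call lost with factors per gene (-0.22).

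**Figure D4:**
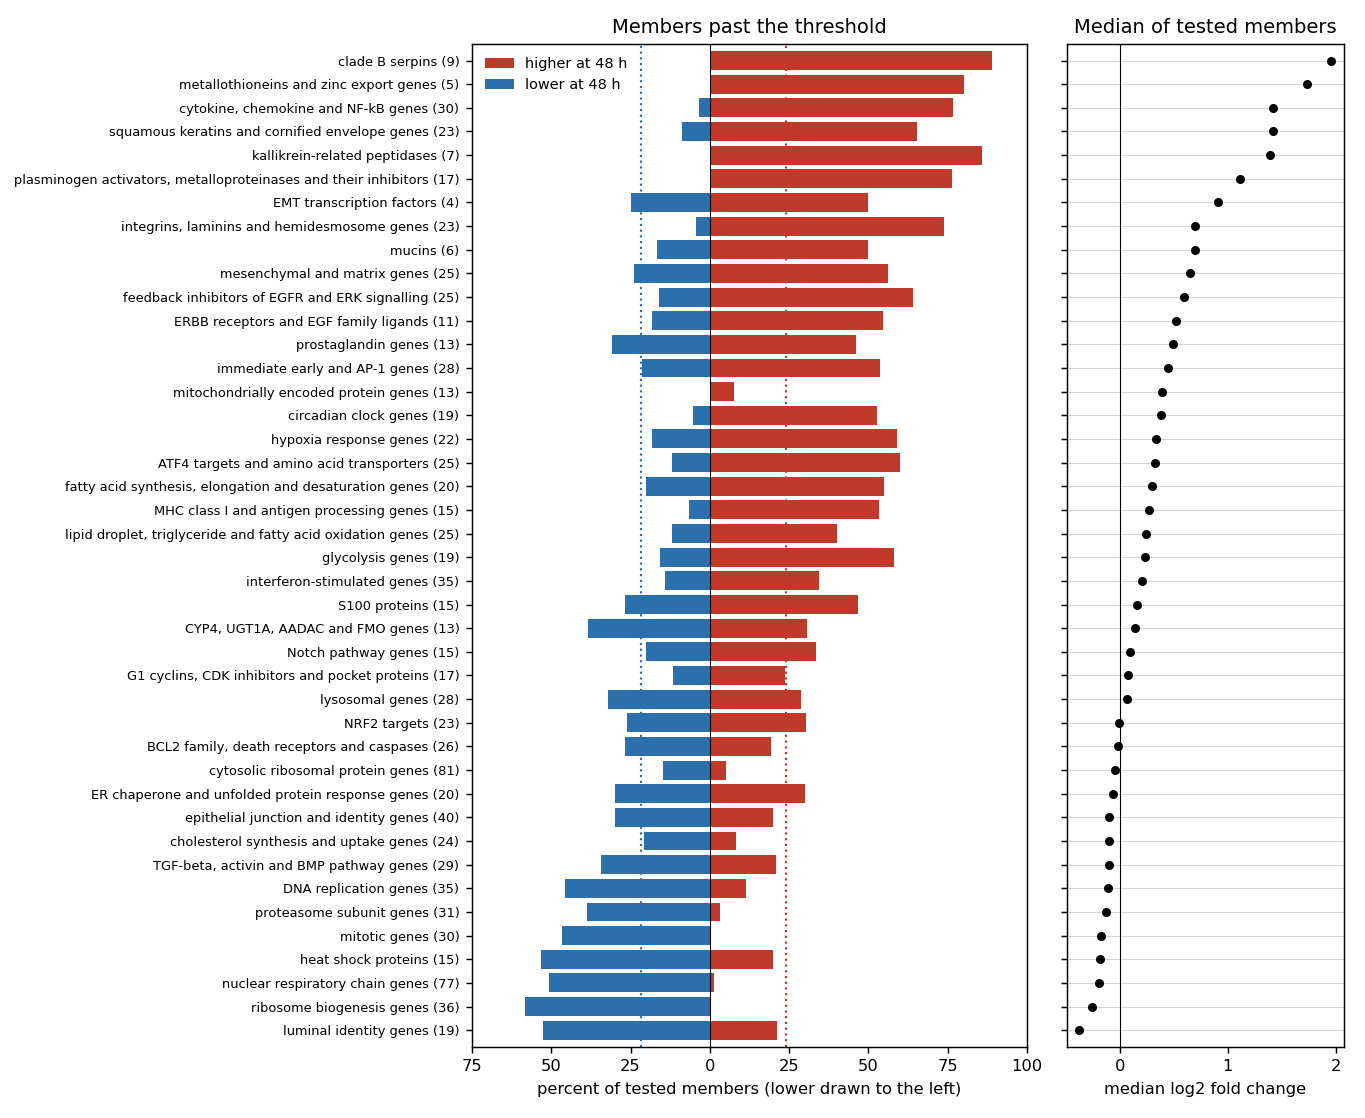
Percent of the tested members of each gene list (number in brackets) that were higher (red, to the right) or lower (blue, to the left) at 48 h, with dotted lines at the shares among all tested genes (24.0% higher, 21.8% lower), and at the right the median log2 fold change of each list. Clade B serpins have the highest median (1.96) and luminal identity genes the lowest (-0.38).

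The 48 h libraries were also tested against the mean of the 24 and 72 h libraries. Both comparisons use the same 48 h libraries. Against these neighbors 7514 genes (45.5%) were called, 3917 (23.7%) higher and 3597 (21.8%) lower at 48 h, and scaling by library size alone turned the split to 5645 higher and 2135 lower. KRT6A, at 70.2 CPM at 48 h, had means of 642 CPM at 24 h and 232 CPM at 72 h (log2 difference -2.46, adjusted p = 7.57e-15), and VIM, at 104 CPM, had 383 and 165 CPM (-1.28). PLAT and SERPINB2, at 5.39 and 5.65 CPM, were lower than at the neighboring times (-2.96 and -3.04). CYP4Z1 was higher than at both (log2 difference 2.85, means of 0.434 and 0.353 CPM), and so were SCD (1.12), SNAI1 (0.78) and SELENOP (1.83). Such a difference from both times was not uniform, since CD24 (-0.13) and MT2A (-0.16, not called) differed little from the mean of these times. Means at 24, 48 and 72 h were 1785, 1433 and 1375 CPM for CD24 and 1952, 2179 and 3031 CPM for MT2A. In this test 8 of 9 clade B serpins were lower and 0 higher, and 15 of 23 squamous genes were lower and 1 higher. For early response genes 20 of 28 were lower and 1 higher, and for mitotic genes 28 of 30 were higher and 0 lower. Of the 7514 called genes, 3136 had all 48 h libraries above or below all 24 and 72 h libraries. A gene that rises steadily can also be called lower in this test. SPRR3, called lower (-0.94), had means of 32.9, 48.6 and 265 CPM at 24, 48 and 72 h.

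**Figure D5:**
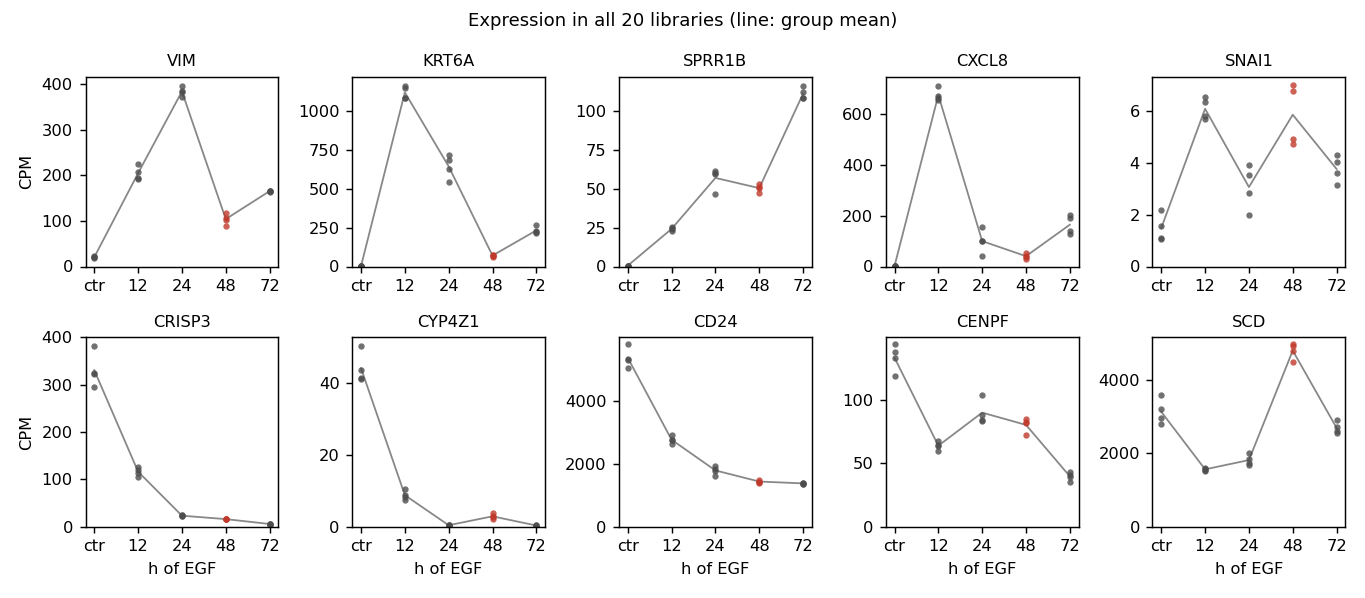
CPM (vertical) of 10 genes in all 20 libraries by hours of EGF (horizontal, ctr for the untreated control), with EGF 48 h in red and a line through the group means. VIM and KRT6A are lower at 48 h than at 24 and 72 h, SCD is higher, and CD24 and CRISP3 stay near their 24 h levels or fall further.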

How the data were processed

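The deposited table holds, for each gene and library, an estimated count and a normalized value, per the file headers. The authors made the estimated counts from Lexogen Corall mRNA libraries, and the submitters' processing notes name hg38 and DESeq2. The aligner, the counter and the strand setting are not given in the sources used here. The deposited normalized values, whole numbers that the authors made with DESeq2 by factors that vary between genes and libraries and are not described, were treated as a score and used only for an alternative that took those factors over. The columns of the authors' own comparisons (fold changes and p-values) were not used.

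The counts, whole as deposited and called estimated because of those factors, were tested with edgeR 4.0.16 (robust quasi-likelihood, TMM, filterByExpr, prior count 0.125) in R 4.3.3 with limma 3.58.1, over all 20 libraries in 5 groups, grouped by label. The contrast was 48 h minus control, and a second was 48 h minus the mean of 24 and 72 h. The fold limit was 1.5 in either direction. Depth was 18393007 to 22158289 counts per control library and 16527104 to 24098943 at 48 h, and counting intervals cover counting error only. The code was tested on simulated data. Alternatives were other normalizations and filters, DESeq2 1.42.0, only the 8 libraries compared, a replicate block, glmTreat (a test against the 1.5-fold limit) and the omission of single libraries.

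The 42 gene lists and the genes named were chosen with earlier results of these data known. Named genes were the 15 largest rises and falls among called genes with a mean of at least 5 CPM and groups that did not overlap, the 5 largest rises and falls of the mean CPM, up to 3 members per direction in each list with a mean of at least 1 CPM, a few fixed genes (EGFR, CDH1, VIM, FN1, EZR, SNAI1, TWIST1, MKI67, CCND1, CDKN1A and MYC) and the 8 largest rises and falls against 24 and 72 h. TGFA, HBEGF, DUSP6, DUSP5, SPRY2, SPRY4, ERRFI1, ETV5, XBP1, FOXA1, ITGA2, A2ML1, IL1RN, CCNB1, TOP2A, CDC20, PLAUR, KRT6B, SMAD3 and ASNS, and the list members named with the values of a group or beside a call and outside this rule, were chosen after their values were seen. Promoters were the 250 bases before the RefSeq start. Some genes that the rule names are not reported here.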

Additional observations from a re-analysis of the deposited data

Results flagged for a closer look

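In 12 of 330 groups of 4 libraries of the genes named, 1 library stood apart from the other 3 by Dixon's criterion, where chance gives about 1 in 20 groups. At 48 h, replicate 2 was highest for CDH1 (102 CPM) and MKI67 (287 CPM) and lowest for ZNF365 (7.43 CPM), replicate 1 was lowest for GLYATL2 (16 CPM), and replicate 3 was highest for DDIT3 (12.6 CPM). In the control, replicate 1 was highest for ZNF365 (0.603 CPM), EZR (104 CPM) and NOP56 (140 CPM) and lowest for AREG (1.56 CPM), replicate 2 was highest for CDC20 (173 CPM), and replicate 3 was highest for SRPX2 (0.683 CPM) and BMP2 (10.2 CPM).

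The effect of EGF at 48 h was compared with its effect at 24 and 72 h in edgeR (adjusted p under 0.05). Compared were the fixed genes and the genes with the largest differences between these times that the text names. Of them 13 differed. SERPINB2, PLAT, KRT6A and SELENOP had been picked as genes that pass this same test, so their passing was fixed in advance. Over all tested genes 45.5% passed it. The log2 difference between 48 h and the mean of 24 and 72 h was -3.04 for SERPINB2, -2.96 for PLAT, -2.46 for KRT6A, -1.28 for VIM, -1.22 for FN1, -1.14 for CDKN1A, -0.87 for CCND1, -0.47 for EZR, -0.28 for MYC and -0.27 for EGFR. Of these 13, it was above 0 for SELENOP (1.83), SNAI1 (0.78) and MKI67 (0.26).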

How the results depend on the processing

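The fit with normalization factors per gene and library took only genes that reached a minimum count of 20 per library, which left 11956 genes. In it 1949 were higher, 2385 lower and 1128 above 1.5-fold at 48 h. Against 24 and 72 h, 1944 were higher and 2393 lower. KLF8 (0.0323) changed sign there, 23 of 218 named genes lost their call, of which the text names CDH1, FOS, FASN, BCL2L11 and MT-ND4L, and the cause was not tested. Fewer list members entered that fit. In it 6 squamous genes, 4 clade B serpins, 3 kallikreins and 10 cytokine genes were higher and 5 luminal genes lower. These counts reflect the minimum count and the factors together, and their separate effects were not tested. With at least 10 counts in every library, which left 12886 genes, 1465 rose and 695 fell by more than 1.5-fold. In glmTreat 1506 were higher and 410 lower, and against 24 and 72 h 614 and 397. With library size only, 2135 genes were lower and 5645 higher against 24 and 72 h. Without single libraries, 3699 to 4271 genes were higher, 3195 to 3817 lower, 2455 to 2754 rose and 1030 to 1227 fell by more than 1.5-fold, against 24 and 72 h 3463 to 4023 were higher and 3148 to 3692 lower, and the mitochondrial share differed by 0.172 to 2.53 percentage points (1.63 with all). With the replicate block 4079 genes were higher and 3750 lower. Same-numbered control and 48 h libraries correlated by 0.000142, 0.328, 0.348 and 0.0272 in their deviations, so the numbers were not taken as pairing, and not every library correlated best with its own number. DESeq2 called 7656 genes, and the 8 libraries alone gave 5588 of 15572. In these 8 libraries 15 cytokine genes, 1 EMT factor and 0 mitochondrially encoded protein genes were higher. Lower there were 9 replication, 5 heat shock, 4 proteasome, 5 lysosomal, 3 cholesterol and 5 cytosolic ribosomal protein genes. Leaving out control replicates 1 and 3, chosen after seeing the data, gave 6183 called genes. Genes near 1 CPM are limited by depth.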
